A study of Homo sapiens with 10 samples.

Results

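The genes described here build the mitotic spindle, move chromosomes along it, duplicate the centrosome and part the daughter cells. The list held 40 genes: 12 mitotic kinesins, 14 spindle assembly genes, 6 centrosome genes, 6 cytokinesis genes and the 2 DEP domain genes DEPDC1 and DEPDC1B. They were chosen by name, with earlier results of these data known. Each was read by its brightest probe set over the 10 arrays among those with a single gene symbol. Of the 40 genes, 39 were measured among 19775 genes in all. The probe sets of CIT, a kinase of the midbody, carry several symbols, so CIT was not analysed here.

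The cells were MM.1S, a human multiple myeloma line, that is, a line of malignant plasma cells. RNA was taken 48 h after lentivirus had brought in a short hairpin RNA. The 10 arrays form 5 groups of 2: shHDAC3#1 and shHDAC3#2 with hairpins against the histone deacetylase HDAC3, shDNMT1#1 and shDNMT1#2 with hairpins against the maintenance DNA methyltransferase DNMT1, and shLuc with a hairpin against luciferase. All 5 groups, the shLuc cells included, had been infected with lentivirus. The labels name shLuc as the control for HDAC3 knockdown; that the DNMT1 arrays were infected and hybridized beside it is stated nowhere in the labels. Nor do they tell whether the replicates were grown as separate cultures. A p-value here thus measures only how far replicate arrays spread, and that spread may be technical.

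Most of these genes are transcribed in waves, with RNA that climbs in G2 and mitosis. Outside that phase the DREAM complex, which joins the pocket proteins RBL1 and RBL2 with E2F4 and the LIN54-containing MuvB core, holds their promoters down. In cycling cells the same core joins MYBL2 and FOXM1 and switches them on. MuvB reaches DNA through a short element named CHR, most often TTTGAA, and the factor NF-Y binds CCAAT boxes close by. The p53 target CDKN1A, an inhibitor of cyclin-dependent kinases, favours the DREAM form. In plasma cell tumours this gene group follows the share of dividing cells. In bulk RNA, fewer cells in mitosis and less RNA per mitotic cell cannot be told apart.

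RefSeq promoter windows of 300 bases, 250 before and 50 after the transcription start on GRCh38.p14, were found for 36 of the 40 genes, with 40 windows. TPX2, FAM83D, AURKA and RACGAP1 were not among them. TTTGAA, searched on both strands, stood in 28 of the 40 windows (70%), against 15.2% of all 35116 windows in the table. CCAAT, searched on both strands, stood in 28 of 40 (70%), against 34.6% of all windows. Both stood in 23 of 40 (57.5%), against 5.9% of all windows. The matches in the sequences shown do not overlap each other. The first 4 were chosen for these letters: in 4 of the classes, each is the gene with the lowest mean change over the 4 hairpins among those with 1 window and both motifs in the 150 bases before the start. Genes without both there, such as KIF15, or without a window, such as RACGAP1, could not be chosen. PLK1, picked after its values were seen, is shown because its window holds the same letters while its signal was not called in any hairpin group. Each is the 150 bases before the start, on the strand of the gene, with matches to either motif in capitals; a match on the other strand stands as the reverse complement.
KIF18A, chr11:28108157-28108306, minus strand: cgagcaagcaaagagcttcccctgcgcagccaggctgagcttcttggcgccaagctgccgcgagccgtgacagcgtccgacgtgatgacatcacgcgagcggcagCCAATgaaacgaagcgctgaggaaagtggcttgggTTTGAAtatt
ASPM, chr1:197146670-197146819, minus strand: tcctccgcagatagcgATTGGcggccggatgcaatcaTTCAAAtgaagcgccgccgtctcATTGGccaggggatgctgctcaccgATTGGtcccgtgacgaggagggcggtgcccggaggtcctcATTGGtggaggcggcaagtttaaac
CEP55, chr10:93496462-93496611, plus strand: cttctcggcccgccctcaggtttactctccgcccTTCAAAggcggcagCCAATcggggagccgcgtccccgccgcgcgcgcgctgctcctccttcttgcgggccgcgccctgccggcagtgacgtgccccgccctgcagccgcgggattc
DEPDC1, chr1:68497083-68497232, minus strand: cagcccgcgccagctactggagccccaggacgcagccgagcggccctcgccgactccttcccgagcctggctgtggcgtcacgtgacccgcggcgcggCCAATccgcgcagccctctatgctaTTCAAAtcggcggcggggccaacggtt
PLK1, chr16:23678739-23678888, plus strand: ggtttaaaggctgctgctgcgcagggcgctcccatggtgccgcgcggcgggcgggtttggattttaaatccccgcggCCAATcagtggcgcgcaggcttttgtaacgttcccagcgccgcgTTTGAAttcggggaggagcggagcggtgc

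ASPM holds 4 CCAAT boxes within these 150 bases. In KIF18A the TTTGAA begins 10 bases before the start and the CCAAT 45 bases before it. In PLK1 they begin 29 and 73 bases before the start. A match is a stretch of letters and was not tested for binding. Among the 35 measured genes with a window, the median log2 change with shHDAC3#2 was -0.86 in the 26 with TTTGAA and -0.41 in the 9 without, and with shDNMT1#2 it was -0.87 and -0.40. With the first hairpins the medians lay closer, at -0.16 and -0.10 with shHDAC3#1 and at -0.32 and -0.24 with shDNMT1#1. Split by CCAAT, the medians of the 27 genes with it and the 8 without were -0.82 and -0.72 with shHDAC3#2 and -0.79 and -0.71 with shDNMT1#2. They were -0.14 and -0.15 with shHDAC3#1 and, with the lower median in the genes that lack it, -0.26 and -0.33 with shDNMT1#1. For the 22 genes with both motifs and the other 13 they were -0.84 and -0.73 with shHDAC3#2, -0.88 and -0.72 with shDNMT1#2, -0.12 and -0.22 with shHDAC3#1 and -0.26 and -0.26 with shDNMT1#1.

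Both hairpins of a target lowered it. HDAC3 had log2 signals of 5.97 and 5.72 with shHDAC3#1, 5.83 and 5.52 with shHDAC3#2, 7.09 and 6.53 with shDNMT1#1 and 6.39 and 6.28 with shDNMT1#2, against 7.26 and 6.61 with shLuc. DNMT1 had 7.14 and 7.29 with shHDAC3#1, 7.64 and 7.89 with shHDAC3#2, 5.76 and 6.0 with shDNMT1#1 and 6.27 and 6.07 with shDNMT1#2, against 8.49 and 8.33 with shLuc. HDAC3 stood at 46.9% of shLuc with shHDAC3#1 and at 41.7% with shHDAC3#2, and DNMT1 at 17.3% with shDNMT1#1 and 21.1% with shDNMT1#2. Off the targeted gene, DNMT1 also fell in HDAC3 hairpin cells and HDAC3 in shDNMT1#2 cells: DNMT1 stood at 43.5% and 63.8% of shLuc with shHDAC3#1 and shHDAC3#2, and HDAC3 at 65.8% with shDNMT1#2 (limma, adjusted p = 0.019). With shDNMT1#1 HDAC3 stood at 91.7% and was not called. Plasma cell markers had group medians of 9.02 to 9.68 log2 signal over 8 genes, while T cell, myeloid, fibroblast and epithelial lists had medians of 4.60 to 6.08. Single genes overlapped: with shLuc the lowest plasma cell marker read 5.90 and the highest fibroblast marker 8.45. Of the 8 plasma cell markers, 3, 1, 5 and 5 were called lower with shHDAC3#1, shHDAC3#2, shDNMT1#1 and shDNMT1#2, where 16.6%, 9.54%, 6.81% and 15.2% of all genes were; the 1 with shHDAC3#2 is a share near that of all genes. In addition 1 was called higher with shHDAC3#1, where 7.83% of all genes were, and 2 with shDNMT1#2, where 11.6% of all genes were. In shDNMT1#2 cells 2 of 5 epithelial markers were called higher and the summed level of that list was 29.7 to 30.5, against 28.28 on both shLuc arrays. The part of these markers in the results was not tested. The ACTB signal at the 3' end minus that at the 5' end, a sign of RNA quality, averaged 1.00 in shHDAC3#1 and lay at 0.71 to 0.74 in the other 4 groups.

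Nearly all of these genes were below shLuc with the second hairpin of either target, and fewer with the first. A gene was called where limma's p, adjusted over all 19775 genes with the Benjamini-Hochberg method, was under 0.05. The genes were chosen with earlier results of these data known, so their counts are no independent test of a fall. With shHDAC3#2, 31 of 39 genes were called lower, where 9.54% of all genes were, and with shDNMT1#2 30 of 39, where 15.2% of all genes were. With shHDAC3#1, 12 of 39 were called lower, where 16.6% of all genes were, and with shDNMT1#1 16 of 39, where 6.81% of all genes were. The 2 genes called higher, ANLN and PRC1, were both in shHDAC3#1 cells, where 7.83% of all genes were called higher. With shHDAC3#2, shDNMT1#1 and shDNMT1#2 limma called 0 of 39 higher, where 1.31%, 1.34% and 11.6% of all genes were, and 0 of 39 were higher at an unadjusted p under 0.05.

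The median log2 change of the 39 genes was -0.14 with shHDAC3#1, -0.74 with shHDAC3#2, -0.28 with shDNMT1#1 and -0.76 with shDNMT1#2, where the median over all genes lay between 0.05 and 0.08. Of the 39, 12 were called and lower by at least 2-fold with shHDAC3#2 (1.08% of all genes) and 12 with shDNMT1#2 (2.2%), but 3 with shHDAC3#1 (1.9%) and 2 with shDNMT1#1 (0.576%). Both hairpin arrays lay below both shLuc arrays for 22 genes with shHDAC3#1 (28% of all genes), 35 with shHDAC3#2 (21.9%), 24 with shDNMT1#1 (19.8%) and 34 with shDNMT1#2 (25.7%). The 4 comparisons share the shLuc arrays, so they are not independent of each other. Without shLuc replicate 1 the counts called lower were 6 with shHDAC3#1 and 8 with shDNMT1#1; without shHDAC3#1 replicate 1 the first was 6, and without shDNMT1#1 replicate 2 the second was 8. The SD of an array's log2 values, 1.94 and 1.93 in shLuc and 1.84 to 1.91 in the hairpin arrays, moved with the groups. With it as a covariate the counts called lower were 1 (shHDAC3#1), 15 (shHDAC3#2), 7 (shDNMT1#1) and 1 (shDNMT1#2) of 39, where 0.829%, 1.63%, 1.76% and 0.364% of all genes were called lower. KIF20A, HMMR and TPX2 with shHDAC3#1 and DEPDC1B with shDNMT1#2 then lay above 0 and were not called.

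**Figure D1:**
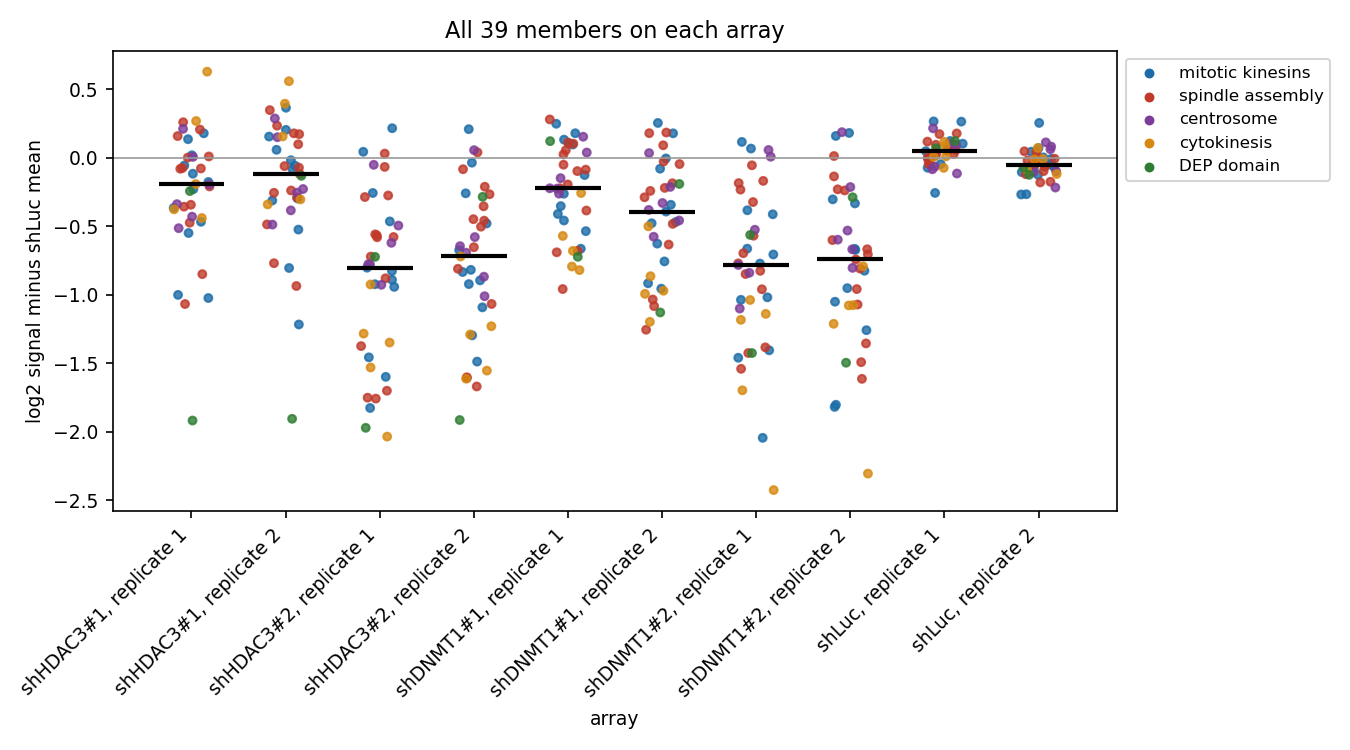
Log2 signal of each of the 39 genes on each of the 10 arrays, minus that gene's mean over the 2 shLuc arrays; points are genes, coloured by class, and black bars are medians. The medians lie at -0.80 and -0.72 in shHDAC3#2 and at -0.78 and -0.74 in shDNMT1#2, against -0.19 and -0.12 in shHDAC3#1 and -0.22 and -0.39 in shDNMT1#1.

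**Figure D2:**
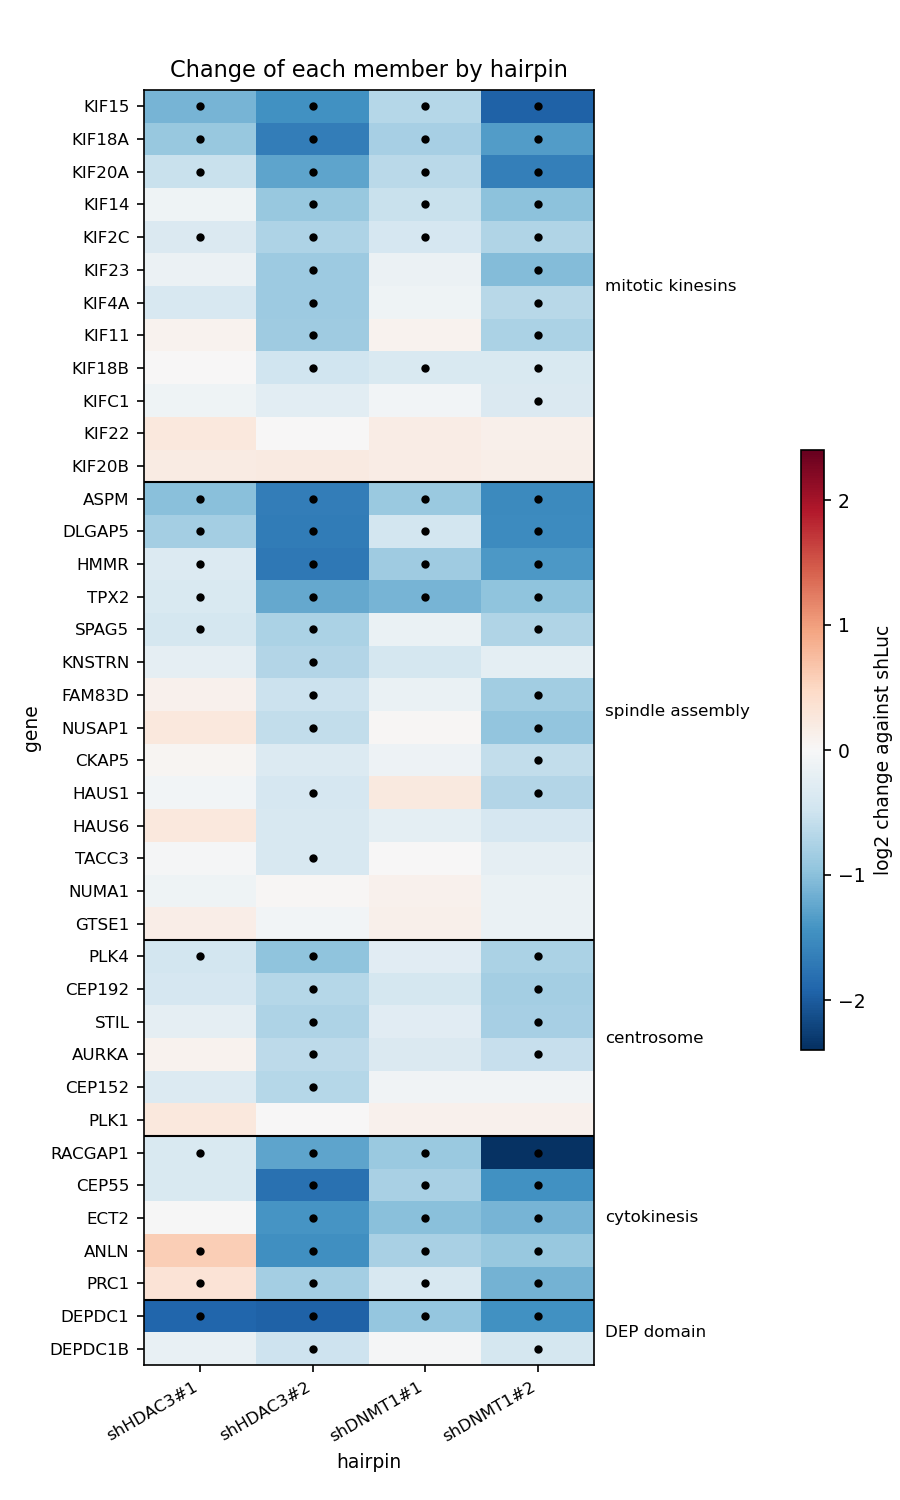
Log2 change against shLuc (colour scale) of the 39 genes (rows, by class) with each hairpin (columns); a black dot marks a gene called by limma at an adjusted p under 0.05. The columns hold 14 dots (shHDAC3#1), 31 (shHDAC3#2), 16 (shDNMT1#1) and 30 (shDNMT1#2).

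The mitotic kinesins, motors that build and shrink the spindle, were called lower for 4 of 12 with shHDAC3#1, 9 with shHDAC3#2, 6 with shDNMT1#1 and 10 with shDNMT1#2. Their median log2 changes were -0.12, -0.86, -0.26 and -0.74 in that order. In the same order 16.6%, 9.54%, 6.81% and 15.2% of all genes were called lower, and the later class counts are to be read against these shares too. KIF15, a motor that can stand in for KIF11 in keeping the spindle bipolar, had log2 signals of 5.09 and 4.87 with shHDAC3#1, 4.49 and 4.79 with shHDAC3#2, 5.68 and 5.14 with shDNMT1#1, 4.05 and 4.27 with shDNMT1#2, against 6.04 and 6.14 with shLuc. Every hairpin array lay below both shLuc arrays. Its log2 changes were -1.11 ± 0.16 (SE) with shHDAC3#1, -1.45 ± 0.16 with shHDAC3#2, -0.68 ± 0.16 with shDNMT1#1 and -1.93 ± 0.16 with shDNMT1#2, with limma adjusted p-values of 2.1e-05, 1.3e-06, 0.0077 and 1.1e-08.

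KIF18A, which damps the swinging of chromosomes on the metaphase plate, read 4.86 and 5.08 with shHDAC3#1, 4.06 and 4.40 with shHDAC3#2, 5.22 and 4.97 with shDNMT1#1, 4.48 and 4.63 with shDNMT1#2, against 6.15 and 5.62 with shLuc. No hairpin array reached the lower shLuc array, and shHDAC3#2 held the lowest value. Its changes were -0.91 ± 0.16 (SE) with shHDAC3#1 and -1.66 ± 0.16 with shHDAC3#2, and -0.79 ± 0.16 with shDNMT1#1 and -1.33 ± 0.16 with shDNMT1#2, all called. The gene is dim, with a mean of 4.95 over the 10 arrays, a range in which the array can understate a change. KIF20A, which carries the chromosomal passenger complex to the central spindle, read 6.90 and 6.92 with shHDAC3#1, 5.99 and 6.35 with shHDAC3#2, 6.91 and 6.69 with shDNMT1#1, 5.99 and 5.64 with shDNMT1#2, against 7.52 and 7.38 with shLuc. The 4 arrays of the second hairpins lay below the 4 of the first. KIF20A stood at 69% of shLuc with shHDAC3#1, 41.3% with shHDAC3#2, 63.9% with shDNMT1#1 and 32.3% with shDNMT1#2, each called.

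KIF11, the motor that pushes the spindle poles apart, KIF23, the motor of centralspindlin, and KIF4A, which binds chromosome arms and the midzone, fell with the second hairpins and were not called with the first. KIF11 changed by -0.85 ± 0.12 (SE) with shHDAC3#2 and -0.76 ± 0.12 with shDNMT1#2, while its values with the first hairpins were 0.09 and 0.09. KIF23 stood at -0.87 with shHDAC3#2 and -1.04 with shDNMT1#2, and KIF4A at -0.88 and -0.66. With shHDAC3#1 KIF4A had -0.38 (limma, adjusted p = 0.052). The KIF23 probe set can bind related transcripts, and the gene-specific one, with a mean of 2.90, gave 0.13 with shHDAC3#2 and -0.13 with shDNMT1#2. KIF14, a midbody kinesin, fell with shHDAC3#2 and with both DNMT1 hairpins, by 0.54 to 0.98 on the log2 scale. KIF2C, which takes microtubule ends apart at centromeres, fell with all 4, by 0.34 to 0.74. KIF18B, which works with KIF2C on astral microtubules, was called with every hairpin but shHDAC3#1. KIFC1, a minus-end motor that gathers the poles, was called with shDNMT1#2 alone, at -0.34, and had -0.26 with shHDAC3#2.

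The spindle assembly genes were called lower for 5 of 14 with shHDAC3#1, 10 with shHDAC3#2, 4 with shDNMT1#1 and 9 with shDNMT1#2, with medians of -0.08, -0.55, -0.16 and -0.71 in that order. ASPM, a spindle pole protein needed for the division of neural progenitors, read 7.13 and 7.26 with shHDAC3#1, 6.49 and 6.59 with shHDAC3#2, 7.50 and 7.11 with shDNMT1#1, 6.77 and 6.58 with shDNMT1#2, against 8.37 and 8.02 with shLuc. All 8 hairpin arrays lay below the shLuc arrays. Its changes were -1.0 ± 0.13 (SE) with shHDAC3#1, -1.65 ± 0.13 with shHDAC3#2, -0.89 ± 0.13 with shDNMT1#1 and -1.52 ± 0.13 with shDNMT1#2, with limma adjusted p-values of 8.3e-06, 2.1e-08, 0.00012 and 2.6e-08. Its brightest probe set is of a kind that can bind related transcripts. The 2 gene-specific probe sets gave -0.60 and -1.22 with shHDAC3#2 and -1.05 and -1.27 with shDNMT1#2. With the first hairpins they gave -0.06 and -0.56 (shHDAC3#1) and -0.30 and -0.89 (shDNMT1#1), so the fall with shHDAC3#1 was smaller by both.

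DLGAP5, which steadies the microtubule fibres that hold chromosomes, read 6.48 and 6.56 with shHDAC3#1, 5.58 and 5.73 with shHDAC3#2, 6.95 and 6.85 with shDNMT1#1, 5.79 and 5.84 with shDNMT1#2, against 7.34 and 7.32 with shLuc. Its levels with the second hairpins lay more than 1 log2 unit below shLuc on every array. DLGAP5 stood at 57.1% of shLuc with shHDAC3#1 and 31.3% with shHDAC3#2, and at 74.1% with shDNMT1#1 and 35% with shDNMT1#2, each called. HMMR, which guides spindle assembly inside the cell and binds hyaluronan outside it, read 8.23 and 8.30 with shHDAC3#1, 6.83 and 6.92 with shHDAC3#2, 7.91 and 7.56 with shDNMT1#1, 7.21 and 7.23 with shDNMT1#2, against 8.65 and 8.53 with shLuc. Both shHDAC3#1 arrays came near shLuc and both shHDAC3#2 arrays were the lowest of all. Its changes were -0.32 ± 0.11 (SE) with shHDAC3#1, -1.71 ± 0.11 with shHDAC3#2, -0.86 ± 0.11 with shDNMT1#1 and -1.37 ± 0.11 with shDNMT1#2, all called. TPX2, which starts microtubule growth near chromosomes and activates AURKA, read 7.45 and 7.67 with shHDAC3#1, 6.55 and 6.85 with shHDAC3#2, 6.96 and 6.67 with shDNMT1#1, 6.96 and 6.96 with shDNMT1#2, against 8.04 and 7.80 with shLuc. With the DNMT1 hairpins the 4 arrays overlapped, at changes of -1.11 ± 0.13 (SE) for shDNMT1#1 and -0.96 ± 0.13 for shDNMT1#2, while the HDAC3 hairpins gave -0.36 and -1.22.

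SPAG5, which holds stable kinetochore attachments, was called lower with every hairpin but shDNMT1#1. Its partner KNSTRN was called with shHDAC3#2 alone, at -0.69, and had -0.43 with shDNMT1#1 (limma, adjusted p = 0.054). NUSAP1, a bundler of microtubules near chromosomes, had -0.59 with shHDAC3#2 and -0.95 with shDNMT1#2, both called, and 0.25 and 0.03 with the first hairpins, neither called. FAM83D, which brings a casein kinase to the spindle, and the augmin subunit HAUS1 were likewise called with the second hairpins alone. CKAP5, a microtubule polymerase, was called with shDNMT1#2 alone, at -0.58, and its spindle partner TACC3 with shHDAC3#2 alone, at -0.39.

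Of the 6 centrosome genes, 1 was called lower with shHDAC3#1, 5 with shHDAC3#2, 0 with shDNMT1#1 by limma (4 at an unadjusted p under 0.05) and 4 with shDNMT1#2. The 1 with shHDAC3#1 is a share of 16.7%, near the 16.6% of all genes. PLK4, the kinase that sets centriole duplication in motion, read 5.45 and 5.58 with shHDAC3#1, 5.03 and 4.95 with shHDAC3#2, 5.74 and 5.63 with shDNMT1#1, 5.12 and 5.29 with shDNMT1#2, against 5.88 and 6.04 with shLuc. All hairpin arrays lay below shLuc. Its change was -0.45 ± 0.12 (SE) with shHDAC3#1, -0.97 ± 0.12 with shHDAC3#2 and -0.75 ± 0.12 with shDNMT1#2, with limma adjusted p-values of 0.01, 8.2e-06 and 8.2e-05, and -0.28 ± 0.12 with shDNMT1#1, which was not called.

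STIL, a centriole scaffold phosphorylated by PLK4, read 6.0 and 5.94 with shHDAC3#1, 5.42 and 5.50 with shHDAC3#2, 6.04 and 5.81 with shDNMT1#1, 5.41 and 5.39 with shDNMT1#2, against 6.30 and 6.09 with shLuc. It was called with shHDAC3#2 at -0.73 and with shDNMT1#2 at -0.79. CEP192, which brings PLK4 to the centriole, read 5.45 and 5.30 with shHDAC3#1, 5.01 and 5.21 with shHDAC3#2, 5.53 and 5.21 with shDNMT1#1, 4.69 and 5.26 with shDNMT1#2, against 5.72 and 5.85 with shLuc. The replicates with shDNMT1#2 lay far apart, and the change was -0.82 ± 0.16 (SE) there and -0.68 ± 0.16 with shHDAC3#2, both called. CEP152, the other receptor of PLK4, was called with shHDAC3#2 alone, at -0.68, but its 5 probe sets gave changes of -0.68 to 0.17 in that comparison. AURKA, the kinase of centrosome maturation, was called with the second hairpins alone, at -0.63 with shHDAC3#2 and -0.56 with shDNMT1#2. That probe set, with a mean of 7.87, and a second one, at -0.52 and -0.63, are of the kind that can bind related transcripts. The gene-specific one, with a mean of 4.56, gave -0.05 and 0.25. With shDNMT1#1 the brightest probe set had -0.34 (limma, adjusted p = 0.052).

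The 5 measured cytokinesis genes all fell with shHDAC3#2 and with both DNMT1 hairpins. They split with shHDAC3#1, where 1 was called lower (16.6% of all genes) and 2 higher (7.83%). Their median log2 changes were -0.02 with shHDAC3#1, -1.41 with shHDAC3#2, -0.77 with shDNMT1#1 and -1.13 with shDNMT1#2. RACGAP1, the GTPase-activating subunit of centralspindlin, read 7.80 and 7.94 with shHDAC3#1, 6.96 and 7.01 with shHDAC3#2, 7.45 and 7.25 with shDNMT1#1, 5.82 and 5.94 with shDNMT1#2, against 8.33 and 8.15 with shLuc. The shDNMT1#2 arrays were the lowest by over 1 log2 unit. The change there was -2.37 ± 0.11 (SE; limma, adjusted p = 2.5e-12), 5.16-fold lower than shLuc and the largest of the 39 genes with any hairpin. The others were -0.89 ± 0.11 with shDNMT1#1, -1.26 ± 0.11 with shHDAC3#2 and -0.37 ± 0.11 with shHDAC3#1, all called. RACGAP1 has a single probe set, of the kind that can bind related transcripts.

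ANLN, a scaffold of the contractile ring, read 6.79 and 6.72 with shHDAC3#1, 4.81 and 4.55 with shHDAC3#2, 5.48 and 5.30 with shDNMT1#1, 5.13 and 5.37 with shDNMT1#2, against 6.17 and 6.15 with shLuc. The shHDAC3#1 arrays were above both shLuc arrays, and the other 6 hairpin arrays were below them. ANLN was called higher with shHDAC3#1, at 0.60 ± 0.13 (SE; limma, adjusted p = 0.0017), and lower with shHDAC3#2, at -1.48 ± 0.13 (limma, adjusted p = 5.8e-08). Its gene-specific probe set gave 0.18 with shHDAC3#1 and -0.90 with shHDAC3#2. PRC1, which bundles the antiparallel microtubules of the midzone, read 8.56 and 8.69 with shHDAC3#1, 7.37 and 7.57 with shHDAC3#2, 8.03 and 7.79 with shDNMT1#1, 7.11 and 7.22 with shDNMT1#2, against 8.41 and 8.17 with shLuc. It was called higher with shHDAC3#1 at 0.33 and lower with shHDAC3#2 at -0.82, with shDNMT1#1 at -0.38 and with shDNMT1#2 at -1.13. The single probe set of PRC1 is of the kind that can bind related transcripts.

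CEP55, which brings the abscission machinery to the midbody, read 6.26 and 6.30 with shHDAC3#1, 4.60 and 5.09 with shHDAC3#2, 6.07 and 5.67 with shDNMT1#1, 4.94 and 5.43 with shDNMT1#2, against 6.65 and 6.63 with shLuc. The shHDAC3#1 arrays sat just below shLuc, and the other hairpin arrays further down without reaching them. Its changes were -1.79 ± 0.17 (SE) with shHDAC3#2, -0.77 ± 0.17 with shDNMT1#1 and -1.45 ± 0.17 with shDNMT1#2, all called, and -0.36 ± 0.17 with shHDAC3#1, not called. ECT2, the exchange factor that switches on RhoA at the cell equator, read 6.48 and 6.82 with shHDAC3#1, 5.14 and 5.38 with shHDAC3#2, 5.85 and 5.47 with shDNMT1#1, 5.53 and 5.59 with shDNMT1#2, against 6.59 and 6.74 with shLuc. The shHDAC3#1 arrays straddled the shLuc values, and all others were lower. The change was -1.41 with shHDAC3#2, -1.01 with shDNMT1#1 and -1.11 with shDNMT1#2. A gene-specific ECT2 probe set, with a mean of 3.49, gave 0.088, 0.16 and 0.15 in the same comparisons. Another, with a mean of 5.41 and like the brightest able to bind related transcripts, gave smaller falls of -0.37, -0.42 and -0.18.

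The DEP domain genes are named for a domain found in signalling proteins, and DEPDC1B has been tied to the loss of adhesion at mitotic entry. DEPDC1 read 5.72 and 5.73 with shHDAC3#1, 5.66 and 5.72 with shHDAC3#2, 6.91 and 6.51 with shDNMT1#1, 6.21 and 6.14 with shDNMT1#2, against 7.76 and 7.51 with shLuc. Here both HDAC3 hairpins were the lowest. Its changes were -1.91 ± 0.13 (SE) with shHDAC3#1, -1.94 ± 0.13 with shHDAC3#2, -0.93 ± 0.13 with shDNMT1#1 and -1.46 ± 0.13 with shDNMT1#2, with limma adjusted p-values of 7.4e-10, 1.8e-09, 5.2e-05 and 3e-08. All 4 of its probe sets were below 0 with every hairpin; the gene-specific one gave -1.04, -1.03, -0.17 and -0.43. DEPDC1B read 5.55 and 5.66 with shHDAC3#1, 5.07 and 5.50 with shHDAC3#2, 5.91 and 5.60 with shDNMT1#1, 5.23 and 5.50 with shDNMT1#2, against 5.86 and 5.72 with shLuc. It was called with the second hairpins alone, at -0.50 with shHDAC3#2 and -0.42 with shDNMT1#2.

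**Figure D3:**
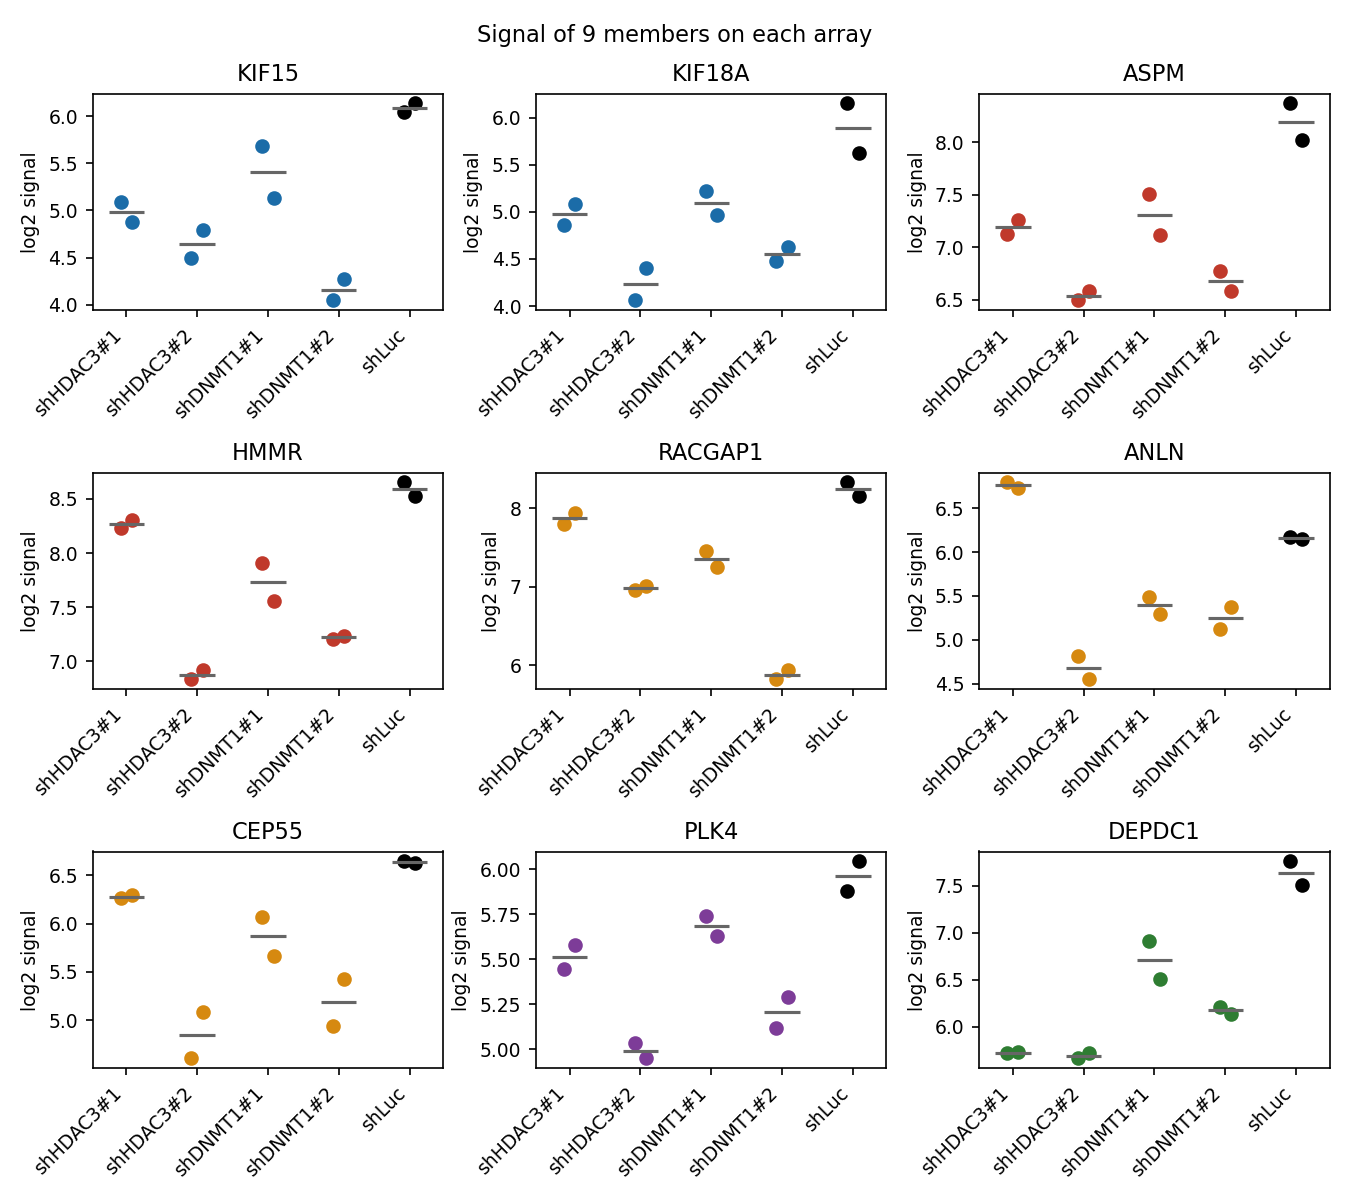
Log2 signal (vertical axes, each on its own scale) of 9 genes on every array, by group; points are arrays, coloured by class in hairpin groups and black in shLuc, and grey bars are means of 2. ANLN lies above shLuc with shHDAC3#1 and below it with the other hairpins; DEPDC1 is lowest with both HDAC3 hairpins, and RACGAP1 with shDNMT1#2.

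A set of 6 genes was called in none of the 4 comparisons by their brightest probe set: KIF20B, KIF22, NUMA1, HAUS6, GTSE1 and PLK1. Of all 19775 genes, 14941 were not called with shHDAC3#1, 17629 with shHDAC3#2, 18164 with shDNMT1#1 and 14473 with shDNMT1#2. How many of them were called in none of the 4 was not counted. PLK1, the kinase that drives mitotic entry and centrosome maturation, read 7.09 and 7.16 with shHDAC3#1, 6.82 and 6.93 with shHDAC3#2, 7.03 and 6.91 with shDNMT1#1, 6.88 and 7.06 with shDNMT1#2, against 6.76 and 6.99 with shLuc. The groups overlapped, apart from shHDAC3#1, whose arrays lay above shLuc. Its changes were 0.25 ± 0.11 (SE) with shHDAC3#1, 0.0 ± 0.11 with shHDAC3#2, 0.10 ± 0.11 with shDNMT1#1 and 0.10 ± 0.11 with shDNMT1#2, from its single probe set, which is gene-specific. KIF22, a chromokinesin that pushes chromosome arms from the poles, ranged from 0.01 to 0.25, and NUMA1, which focuses the spindle poles with dynein, from -0.15 to 0.10. HAUS6, an augmin subunit, ranged from -0.40 to 0.25 and is dim, with a mean of 4.47.

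For GTSE1 and KIF20B the probe sets of a gene disagree with the second hairpins. With shHDAC3#1 they differ in sign for HAUS6 (0.25 by the brightest, -0.28 and -0.15 by others), NUMA1 (-0.10, and 0.13 to 0.47 by others) and KIF22 (0.25 and -0.03). The brightest probe set of GTSE1, a microtubule-binding regulator of KIF2C, gave -0.07 with shHDAC3#2 and -0.15 with shDNMT1#2. Another, also of the kind that can bind related transcripts, gave -1.14 and -1.53, and 2 more gave -0.86 and -0.80 with shHDAC3#2. The gene-specific one, with a mean of 7.90, lay near the brightest, at 0.03 with shHDAC3#2 and -0.14 with shDNMT1#2. For KIF20B, a kinesin of late cytokinesis, the brightest gave 0.21 with shHDAC3#2 and 0.14 with shDNMT1#2. Another gave -0.56 and -0.51, and a dimmer one 0.05 and -0.22. These other probe sets were not used for the calls.

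The second hairpins were then set against the first, without shLuc. With shHDAC3#2, 27 of 39 genes were called lower than with shHDAC3#1, where 3.75% of all genes were, at a median of -0.51. With shDNMT1#2, 21 of 39 were called lower than with shDNMT1#1, where 8.39% of all genes were, at a median of -0.47. Limma called 0 of 39 higher in either, where 8.85% and 3.57% of all genes were, and 0 of 39 were higher at an unadjusted p under 0.05. HDAC3 with shHDAC3#2 stood at 88.8% of its level with shHDAC3#1 (limma, adjusted p = 0.67), and DNMT1 with shDNMT1#2 at 122% of its level with shDNMT1#1 (limma, adjusted p = 0.14), so neither target differed past the threshold between its hairpins. DNMT1 with shHDAC3#2 stood at 147% of its level with shHDAC3#1 (limma, adjusted p = 0.0027). Without shHDAC3#1 replicate 2 the first count was 16, and without shDNMT1#1 replicate 1 the second was 13. With the array SD as a covariate they were 29 and 2. The ACTB 3' minus 5' signal also differed between the HDAC3 hairpins, averaging 1.00 in shHDAC3#1 and 0.74 in shHDAC3#2. Its part in the first count was not tested.

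Between the HDAC3 hairpins all 5 cytokinesis genes were called, and 3 of them led. ANLN differed by -2.08 ± 0.13 (SE), CEP55 by -1.44 ± 0.17 and ECT2 by -1.39 ± 0.14, shHDAC3#2 minus shHDAC3#1, with limma adjusted p-values of 3.4e-10, 1.9e-06 and 3.7e-07. HMMR followed at -1.39. DEPDC1, by contrast, differed by -0.03 and was not called. Between the DNMT1 hairpins RACGAP1 led at -1.47 ± 0.11 (SE), then KIF15 at -1.25 ± 0.16 and DLGAP5 at -1.08 ± 0.11, shDNMT1#2 minus shDNMT1#1, with limma adjusted p-values of 4.5e-09, 8.8e-06 and 3.9e-07. ANLN, ECT2 and TPX2 had differences of -0.14, -0.10 and 0.15, none called.

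**Figure D4:**
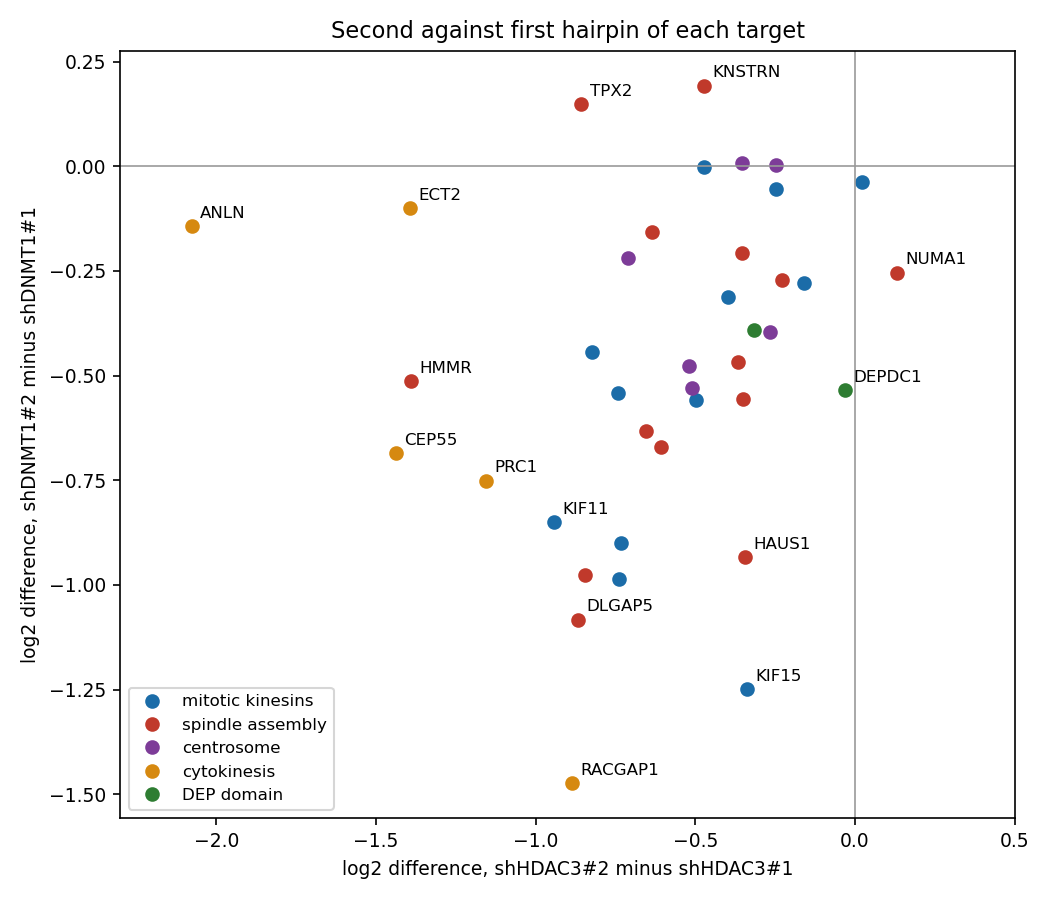
Log2 difference of each of the 39 genes between the hairpins of a target: shHDAC3#2 minus shHDAC3#1 on the horizontal axis and shDNMT1#2 minus shDNMT1#1 on the vertical axis, with grey lines at 0; points are genes coloured by class, and 14 carry their names. ANLN lies far left at -2.08 with -0.14 on the vertical axis, and RACGAP1 is lowest at -1.47.

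The mean of the DNMT1 hairpins minus the mean of the HDAC3 hairpins was called for 9 of 39 genes, 6 lower and 3 higher, where 3.59% of all genes were called lower, 6% higher and 9.59% in either direction. The median was -0.04, where that of all genes was 0.02. RACGAP1 was lower in the DNMT1 group, at -0.82 ± 0.08 (SE; limma, adjusted p = 2.6e-07), and so was PRC1, at -0.51 ± 0.08 (limma, adjusted p = 0.00016). DEPDC1 was higher in it, at 0.73 ± 0.09 (limma, adjusted p = 9.3e-06). Of the 5 cytokinesis genes 4 were called lower. RACGAP1 and PRC1 were lower only in the mean. With shDNMT1#1 RACGAP1 read 7.45 and 7.25, above its 6.96 and 7.01 with shHDAC3#2. PRC1 read 8.03 and 7.79, above its 7.37 and 7.57. The DNMT1 hairpin arrays all lay below the HDAC3 hairpin arrays for 0 of 39 genes (327 of all 19775). They all lay above for 2, DEPDC1 and CEP152 (702 of all 19775). All 12 kinesins went uncalled by limma; 2 were lower and 1 higher at an unadjusted p under 0.05. With hairpins as random blocks, so that their spread within a target enters the error, 0 of 39 were called by limma, 3 had an unadjusted p under 0.05, and the smallest adjusted p was 0.24.

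Genes of the same machinery outside the list were read in 7 further lists, also chosen with earlier results of these data known. Their counts are to be read against the 16.6%, 9.54%, 6.81% and 15.2% of all genes called lower with shHDAC3#1, shHDAC3#2, shDNMT1#1 and shDNMT1#2, and the 7.83%, 1.31%, 1.34% and 11.6% called higher. The kinetochore, checkpoint and CDK1 genes, which act in the same phase, were called lower for 13 of 24 with shHDAC3#1, 19 with shHDAC3#2, 13 with shDNMT1#1 and 21 with shDNMT1#2. CDK1, the kinase that drives mitosis, changed by -1.92 ± 0.11 (SE) with shDNMT1#2, and SPC25, a subunit of the microtubule-binding NDC80 complex, by -1.59 ± 0.14 with shDNMT1#2 and -1.42 ± 0.14 with shHDAC3#2. Of 29 other kinesins, most of which serve transport in interphase or cilia, 4 were called lower with shHDAC3#1 (and 5 higher), 2 with shHDAC3#2, 1 with shDNMT1#1 and 2 with shDNMT1#2. The shares called lower, 13.8%, 6.9%, 3.45% and 6.9%, were below those of all genes. Among the 4 with shHDAC3#1 was KIF2A, which takes microtubules apart, also at spindle poles, at -1.12 ± 0.14 (SE). KIFAP3, the cargo adaptor of kinesin-2, had the lowest change of the 29, at -1.73 ± 0.15 (SE) with shDNMT1#1 and -1.29 ± 0.15 with shDNMT1#2.

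Tubulins, the building blocks of the spindle, were called lower for 8 of 11 with shHDAC3#1, 7 with shHDAC3#2 and 8 with shDNMT1#2, but for 0 with shDNMT1#1 by limma, with 1 at an unadjusted p under 0.05. TUBA1A changed by -1.49 ± 0.11 (SE) with shHDAC3#1, -0.70 ± 0.11 with shHDAC3#2 and -1.32 ± 0.11 with shDNMT1#2. Tubulin genes are near-identical in their coding parts, so their probe sets may read more than 1 of them. Of 12 other genes of the γ-tubulin ring complex and augmin, which start new microtubules, 5, 4, 2 and 5 were called lower with shHDAC3#1, shHDAC3#2, shDNMT1#1 and shDNMT1#2. The γ-tubulin gene TUBG1 fell with each, and most with shDNMT1#2, at -1.82 ± 0.11 (SE).

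Of 15 other centrosome and centriole genes, 6 were called lower with shHDAC3#1 (and 2 higher), 3 with shHDAC3#2, 3 with shDNMT1#1 and 5 with shDNMT1#2 (and 3 higher). CETN3, a centrin of the centriole, changed by -1.04 ± 0.11 (SE) with shHDAC3#1, -0.76 ± 0.11 with shHDAC3#2, -0.56 ± 0.11 with shDNMT1#1 and -0.75 ± 0.11 with shDNMT1#2, all called. Of 15 other cytokinesis and abscission genes, 9, 7, 4 and 12 were called lower in that order of hairpins. MYH10, a non-muscle myosin heavy chain, fell most with shDNMT1#2, at -1.91 ± 0.13 (SE), and RHOA, the GTPase that ECT2 activates, was called lower with every hairpin, by 0.37 to 0.98.

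**Figure D5:**
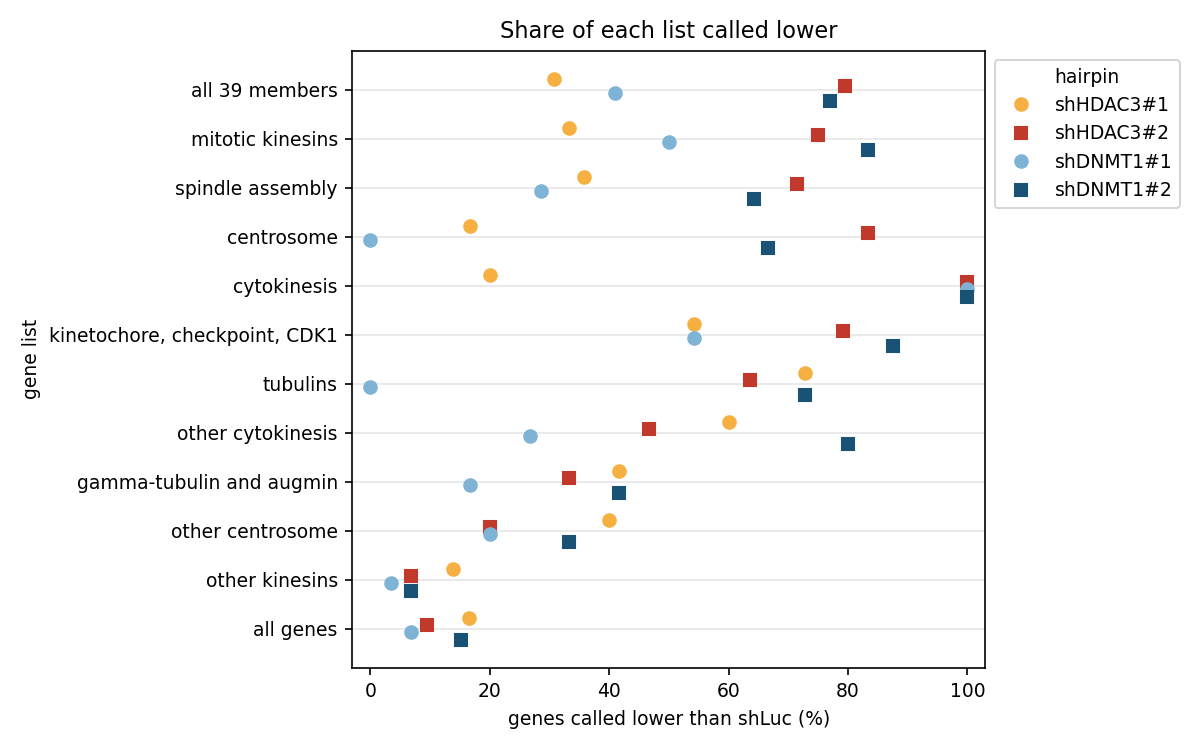
Percentage of the measured genes of each list (rows) called lower than shLuc by limma with each hairpin; circles are first hairpins, squares second hairpins, and the bottom row is all 19775 genes. The squares of the mitotic classes lie at 64.3% or more and their circles between 0% and 100%. With shHDAC3#2 and shDNMT1#2 tubulins lie at 63.6% and 72.7%, and other cytokinesis genes at 46.7% and 80%. The other kinesins lie at 13.8% or less with every hairpin.

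Among 19 regulators of this programme, 6 were called lower and 4 higher with shHDAC3#1, 9 lower with shHDAC3#2, 4 lower and 1 higher with shDNMT1#1, and 7 lower and 3 higher with shDNMT1#2. FOXM1 changed by -0.84 ± 0.11 (SE) with shHDAC3#2, -0.50 ± 0.11 with shDNMT1#1 and -0.66 ± 0.11 with shDNMT1#2, all called, and had -0.18 ± 0.11 with shHDAC3#1. MYBL2 had -0.26 ± 0.09 (SE) with shHDAC3#1, -0.41 ± 0.09 with shHDAC3#2 and -0.32 ± 0.09 with shDNMT1#2, all called, and 0.04 ± 0.09 with shDNMT1#1. E2F8, a repressor of E2F targets, fell with all 4, with log2 changes between -2.03 and -0.74. CDKN1A rose with shHDAC3#1, at 0.59 ± 0.09 (SE), with shDNMT1#1, at 0.99 ± 0.09, and with shDNMT1#2, at 1.32 ± 0.09. With shHDAC3#2, where 31 of the 39 genes were called lower, CDKN1A had -0.01 ± 0.09 (SE; limma, adjusted p = 0.96). The part of these regulators in the changes above was not tested.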

How the data were processed

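RNA was measured with an Affymetrix 3' expression array. The deposited log2 signals of 54675 probe sets were made by the authors with RMA, per the submitters' processing notes. No version is named, nor whether all arrays shared 1 run. The values had the range of log2 data. The platform annotation gave 1 symbol to 41097 probe sets, several to 1801 and none to 11777, and only the first kind was used; 41043 of these matched RefSeq (GRCh38.p14) by gene ID. Each of 19775 genes was read by its brightest probe set. For 19 of the 39 genes described, that probe set is of the kind that can bind related transcripts. Levels of different probe sets were compared only to choose the brightest, to mark dim ones and to read the cell type markers.

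One limma 3.58.1 model (R 4.3.3; lmFit, eBayes with trend) held all 5 groups, with 5 residual degrees of freedom. Tests were two-sided, with Benjamini-Hochberg adjustment over the 19775 genes of each comparison, and called at 0.05. Errors are limma's SE, n = 2 arrays a group; this number limits the precision. In a simulated shHDAC3#2 comparison over 19775 genes the fit recovered 70% of falls of 0.5 and 100% of falls of 1 (log2), with 11 of 181 calls false. The simulation drew independent normal noise from limma's spread and lowered few genes, in the shHDAC3#2 group only. Real arrays may share shifts, and many more genes were called there, so these rates need not hold for the real calls.

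The members and lists were chosen with earlier results of these data known. Array values are given for the 2 called genes of largest change per class and hairpin. They are also given for genes called higher and the 3 leading genes of each difference. Genes called in none are given by value. At most 3 genes are named per further list, and among the regulators CDKN1A, FOXM1 and MYBL2 are always named besides. The labels do not say whether replicate numbers pair the arrays. Deviations of same-numbered arrays correlated between groups at r = -0.343 to 0.266, which cannot exclude a culture or batch shared by number.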

Additional observations from a re-analysis of the deposited data

Results flagged for a closer look

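The hairpins of a target differed from each other by a test of the difference. With shHDAC3#2, 27 of 39 genes were called lower than with shHDAC3#1 (3.75% of all genes), and with shDNMT1#2, 21 were called lower than with shDNMT1#1 (8.39% of all genes). Between the HDAC3 hairpins, shHDAC3#2 minus shHDAC3#1, the log2 difference was -2.08 for ANLN, -1.44 for CEP55, -1.39 for ECT2 and -1.16 for PRC1. ANLN and PRC1 were above shLuc with shHDAC3#1 and below it with shHDAC3#2, by probe sets that can bind related transcripts. The gene-specific probe set of ANLN gave 0.18 with shHDAC3#1 and -0.90 with shHDAC3#2, and PRC1 has none. Between the DNMT1 hairpins, shDNMT1#2 minus shDNMT1#1, the log2 difference was -1.47 for RACGAP1, -1.25 for KIF15 and -1.08 for DLGAP5. The ACTB 3' minus 5' signal averaged 1.00 in shHDAC3#1 and 0.74 in shHDAC3#2. Its part in the differences between the HDAC3 hairpins was not tested.

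The DNMT1 hairpins minus the HDAC3 hairpins were called by limma for 9 of 39 genes, a share to be read against 9.59% of all genes. With the hairpin as a random block 0 of 39 were called by limma, 3 had an unadjusted p under 0.05, and the smallest adjusted p was 0.24. The log2 difference was -0.82 for RACGAP1, -0.51 for PRC1, -0.40 for ANLN, -0.34 for ECT2, -0.29 for NUSAP1 and -0.28 for FAM83D, and 0.73 for DEPDC1, 0.42 for CEP152 and 0.27 for DLGAP5. For ANLN and ECT2 the means of the DNMT1 hairpins lay between those of the 2 HDAC3 hairpins. None of the genes called lower had all its DNMT1 hairpin arrays below all its HDAC3 hairpin arrays. Of those called higher, DEPDC1 and CEP152 had all of them above.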

How the results depend on the processing

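The counts called lower than shLuc, and the 3 further counts, were each refitted under 20 alternatives, and the DNMT1 minus HDAC3 count also with the hairpin as a random block. Of 161 gene values followed, 91 were called. Over all alternatives 162 values lost the call and 34 gained it without a turn of direction. A turn was counted only where the value was called before or under the alternative, and 11 values turned. The other 2973 kept their side of the threshold, and uncalled values among them may have changed sign. With the array SD as a covariate the counts were 1 (shHDAC3#1), 15 (shHDAC3#2), 7 (shDNMT1#1), 1 (shDNMT1#2) and 2 (shDNMT1#2 minus shDNMT1#1); the covariate takes up 1 of 5 residual degrees of freedom and moves with the groups. Under it 5 values that had been called turned: KIF20A 0.21, HMMR 0.0935 and TPX2 0.40 with shHDAC3#1, DEPDC1B 0.38 with shDNMT1#2, and KIF18A 0.13 between the DNMT1 hairpins. None of these was called any longer. Without probe sets that can cross-hybridize, 31 genes were measured, and 7 were called lower with shHDAC3#1 and 9 with shDNMT1#1. There ECT2 was read by a dim probe set and turned to 0.0879 (shHDAC3#2), 0.16 (shDNMT1#1), 0.15 (shDNMT1#2), 0.041 (shHDAC3#2 minus shHDAC3#1) and 0.0881 (DNMT1 minus HDAC3 hairpins), and ASPM to -0.34 in the last (called). With the hairpin as a random block the count of the DNMT1 minus HDAC3 difference was 0 by limma, with 3 genes at an unadjusted p under 0.05. The cause of these shifts was not tested otherwise.

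Leaving out 1 array at a time gave 6 to 14 genes lower with shHDAC3#1, 24 to 32 with shHDAC3#2, 8 to 19 with shDNMT1#1, 27 to 30 with shDNMT1#2, 16 to 28 for shHDAC3#2 minus shHDAC3#1, 13 to 23 for shDNMT1#2 minus shDNMT1#1 and 5 to 9 for the DNMT1 minus HDAC3 difference. That last count was 5 without shHDAC3#1 replicate 2, shHDAC3#2 replicate 2 or shDNMT1#2 replicate 2. A group left with 1 array was assumed to vary like the others. The replicate number as a block gave 10, 31, 15, 30, 26, 21 and 9 genes in the same order. Whether the numbers pair the arrays is not known, so this block is not read as a paired analysis. Signals near background can understate changes, and 3 of the 39 genes had a mean under 5: KIF18A, KIF23 and HAUS6.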
